A study of Mus musculus with 6 samples.

Results

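Transcripts of 9 genes that carry out or license regulated cell death were followed in mouse liver: Fas, Casp8, Bid and Bcl2l11 of apoptosis, Ripk1, Ripk3 and Mlkl of necroptosis, and Casp1 and Gsdmd of pyroptosis. They were taken as the rows of the deposited count table whose gene name equals one of these symbols, which gave 9 rows of 43346. All 9 passed the filter on low counts. The livers came from mice on the FFC diet, which the submitters use as a dietary model of metabolic dysfunction-associated steatohepatitis, and every mouse received an adeno-associated virus 8 construct encoding a short hairpin RNA (shRNA). Libraries 2, 3 and 2600 are labelled S100a11 with the genotype knockdown (KO), S100a11 being a small calcium-binding protein. Libraries 28, 30 and 31 are labelled scrambled control, so both groups share the diet and a viral shRNA. Strain, sex, age, viral dose, hairpin, promoter and time on diet are not stated in these sources. AAV8 mainly reaches hepatocytes, so other liver cells may keep the targeted transcript. Whether each library came from its own animal is not stated either, and the p-values therefore describe the spread among these 6 samples, which may be technical.

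Regulated cell death runs along linked routes. The death receptor Fas, when bound by its ligand, recruits the adaptor FADD and the initiator caspase 8, which in hepatocytes cleaves Bid so that the signal passes through mitochondria. Bcl2l11, known as Bim, is another member of the pro-apoptotic BH3-only group. Where caspase 8 is inactive, the kinases RIPK1 and RIPK3 assemble and RIPK3 phosphorylates MLKL, whose oligomers rupture the plasma membrane. In pyroptosis the inflammasome protease caspase 1 cleaves gasdermin D, which then forms pores. Much of this control acts on protein cleavage, phosphorylation and assembly, which transcript counts do not measure.

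The libraries held 53517387 to 78091845 counts over genes, and the 9 genes held 153 to 3451 counts per library. Levels are given as CPM, the counts of a gene relative to all counts of its library, scaled with TMM factors, which correct for composition. One count was worth at most 0.0227 CPM. S100a11 stood at 16.0, 3.55 and 3.41 CPM in libraries 2, 3 and 2600, against 15.9, 22.9 and 30.0 CPM in scrambled libraries 28, 30 and 31. Library 2 therefore did not separate from the scrambled group in the targeted transcript, and groups are called by their labels throughout. Over all genes, too, library 2 differed less from each scrambled library (chi-square per gene of 158 to 223) than from libraries 3 and 2600 of its own label (235 and 349), a measure that also grows with depth. Without library 2 the number of called genes was 4176 in place of 2728. Hepatocyte markers, 7 genes including Alb and Apoa1, summed to 40982 to 68069 CPM over the 6 libraries. In whole liver, fewer cells of a type and less RNA per cell cannot be told apart.

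Fas rose in the libraries labelled S100a11 shRNA, and none of the other 8 genes passed the threshold in either direction (edgeR quasi-likelihood test, Benjamini-Hochberg adjusted p under 0.05 over 19352 tested genes). That is 1 gene of 9 called, where 14.1% of all tested genes were called, so the share is near the background. Of all tested genes 5.82% were called higher and 8.28% lower. At an unadjusted p under 0.05 the 9 genes gave 3 (Fas higher, Mlkl and Bcl2l11 lower), beside 29.7% of all genes. The median log2 change of the 9 was -0.02, and that of all tested genes 0.04. The 2 groups did not overlap in 6 of the 9 genes, 4 higher and 2 lower, where 34.7% of all genes did not overlap (16.5% higher and 18.1% lower).

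**Figure D1:**
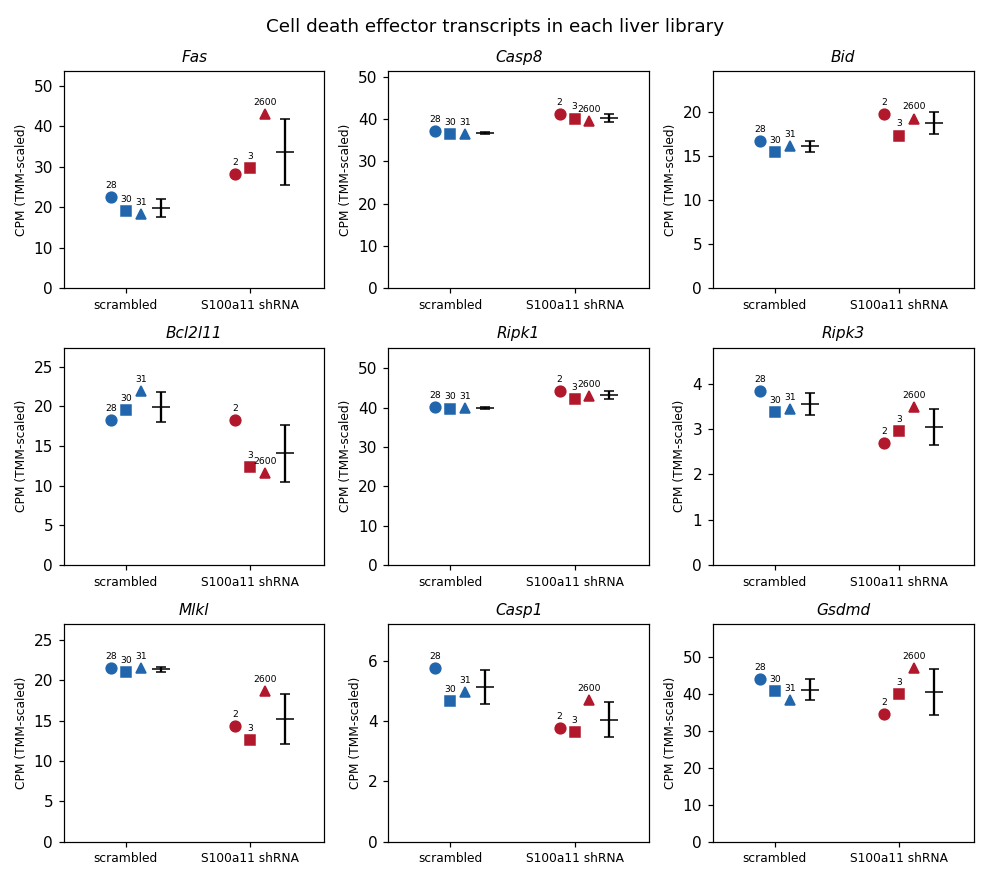
Each panel plots CPM (vertical axis, from 0) of 1 gene in scrambled libraries 28, 30 and 31 (blue) and in libraries 2, 3 and 2600 labelled S100a11 shRNA (red), with the mean and SD (n = 3) beside the points. Fas lies above every scrambled library in all 3 red points, Mlkl and Bcl2l11 lie below them, and the points of Casp8 and Ripk1 are tightly grouped.

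The bases just upstream of the start sites of Fas, Mlkl and Bcl2l11 are shown because these 3 genes had the smallest p-values, in opposite directions. Each window is the 250 bases before the RefSeq start site (build GRCm38.p6, 5′ to 3′ on the gene's strand), overlaps 0 GENCODE exons and carries motif matches in capitals. The first is chr19:34290409-34290658 on the plus strand, the next chr8:111338206-111338455 on the minus strand and the last chr2:128125788-128126037 on the plus strand.
Fas: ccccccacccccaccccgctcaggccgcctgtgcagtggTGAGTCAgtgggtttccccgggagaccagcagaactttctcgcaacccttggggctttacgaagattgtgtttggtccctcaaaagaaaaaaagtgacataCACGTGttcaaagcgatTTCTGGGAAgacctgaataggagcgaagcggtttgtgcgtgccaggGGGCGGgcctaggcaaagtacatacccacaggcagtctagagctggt
Mlkl: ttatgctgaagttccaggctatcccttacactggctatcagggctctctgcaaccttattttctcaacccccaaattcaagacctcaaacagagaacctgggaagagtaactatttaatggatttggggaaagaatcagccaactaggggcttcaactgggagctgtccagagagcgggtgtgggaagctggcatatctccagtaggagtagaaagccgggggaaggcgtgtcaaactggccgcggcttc
Bcl2l11: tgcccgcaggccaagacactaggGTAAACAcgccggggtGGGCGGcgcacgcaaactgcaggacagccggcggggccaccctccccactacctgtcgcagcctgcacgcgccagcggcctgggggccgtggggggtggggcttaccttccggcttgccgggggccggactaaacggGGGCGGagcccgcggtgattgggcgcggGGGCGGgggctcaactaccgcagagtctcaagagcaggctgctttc

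The motifs searched, on both strands, were AP-1 (TGANTCA), E-box (CACGTG), FOXO (GTAAACA), GC box (GGGCGG), GAS (TTCNNNGAA), the interferon element ISRE, NF-kB (both by name alone) and the TATA box (TATAAA). The Fas window held 4 of them, each once: AP-1 from -211 to -205 relative to the start site, E-box from -110 to -105, GAS from -93 to -85 and a GC box from -47 to -42. The Bcl2l11 window held FOXO from -227 to -221 and GC boxes at 3 places. The Mlkl window held 0 of the motifs, which says only that these letters are not in it. None of the matches in these windows overlapped another. Over 32536 windows of the same length the share with a match was 6.73% for AP-1, 6.04% for the E-box, 3.17% for FOXO, 33.0% for the GC box and 7.04% for GAS. Windows were found for 8 of the 9 genes, 10 windows in all. Of these genes 1 held an AP-1 match, 1 FOXO, 3 an E-box, 5 a GC box and 2 GAS (Fas and Ripk1). An ISRE, NF-kB or TATA match was in 0 of them, where 2.98%, 0.36% and 12.3% of the 32536 windows held one. Bcl2l11 has another window, not shown, that also held GC boxes. A match is a description of letters and not a bound site.

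Apoptosis genes are taken first. Fas (ENSMUSG00000024778, mm10 chromosome 19, 34290659 to 34327770, plus strand, protein coding) encodes the death receptor of the Fas ligand. It stood at 28.2, 29.6 and 43.0 CPM in libraries 2, 3 and 2600 and at 22.4, 19.0 and 18.3 CPM in scrambled libraries 28, 30 and 31. All 3 libraries labelled S100a11 shRNA were above all scrambled ones, and library 2600 was well above the other two. The Fas means were 33.6 ± 8.16 against 19.9 ± 2.22 CPM (SD, n = 3 each), a 1.69-fold rise (log2 change 0.75 ± 0.19 SE, edgeR adjusted p = 0.032). The Fas call was narrow. Without library 2 its adjusted p was 0.013, but it was 0.061 without library 3, 0.068 without library 2600 and 0.060, 0.13 and 0.11 without scrambled libraries 28, 30 and 31, with log2 changes of 0.52 (without library 2600) to 0.85. With upper-quartile factors the Fas log2 change was 0.66 with an adjusted p of 0.0502, so that it was not called, and with library totals alone it was 0.38 with an adjusted p of 0.13.

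The Fas ligand was lower by sign. Fasl, made by T and NK cells and chosen for mention after its values were seen, stood at 0.56, 0.27 and 0.39 CPM in libraries 2, 3 and 2600 and at 0.68, 0.97 and 0.64 CPM in scrambled libraries 28, 30 and 31. All 3 values were below the scrambled ones, on 17 to 67 counts per library, and the change did not pass (log2 change -0.90 ± 0.36 SE, edgeR adjusted p = 0.13). Summed T and NK cell markers, 8 genes, were 5.11 to 7.02 CPM against 6.27 to 10.1 CPM in the scrambled group, and their part in the Fasl values was not tested.

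Casp8 (ENSMUSG00000026029, chromosome 1, 58795374 to 58847503, plus strand) encodes the initiator caspase of death receptors, which also restrains necroptosis. It was 41.1, 40.1 and 39.5 CPM in libraries 2, 3 and 2600, against 37.1, 36.5 and 36.5 CPM in scrambled libraries 28, 30 and 31. The groups did not overlap, but the difference was small. The Casp8 means of 40.3 ± 0.83 and 36.7 ± 0.34 CPM (SD, n = 3 each) gave a log2 change of 0.13, with a 95% interval from -0.13 to 0.40 (edgeR adjusted p = 0.49). The sign turned to -0.23 with library totals alone.

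Bid (ENSMUSG00000004446, chromosome 6, 120891930 to 120916853, minus strand) encodes the BH3-only protein that caspase 8 cleaves. It was 19.7, 17.3 and 19.3 CPM in libraries 2, 3 and 2600 and 16.7, 15.5 and 16.2 CPM in the scrambled libraries 28, 30 and 31. The groups again did not overlap, and the lowest value of one lay close to the highest of the other. The Bid log2 change was 0.22 ± 0.13 (SE), with a 95% interval from -0.08 to 0.52 (edgeR adjusted p = 0.30), or -0.14 with library totals alone. Bid shares 628 exon bases (17.7% of its exon bases) with Bcl2l13 on the opposite strand, and the strand setting of the counting is not known, so the Bid counts are uncertain.

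Bcl2l11 (ENSMUSG00000027381, chromosome 2, 128126038 to 128162547, plus strand) encodes Bim, a BH3-only protein that binds the survival proteins of the BCL2 family. It stood at 18.2, 12.4 and 11.6 CPM in libraries 2, 3 and 2600 and at 18.3, 19.5 and 21.9 CPM in scrambled libraries 28, 30 and 31. Library 2 was level with the lowest scrambled library, as it was for S100a11, and the other two were well below. The Bcl2l11 means were 14.1 ± 3.63 and 19.9 ± 1.85 CPM (SD, n = 3 each), 1.41-fold lower without passing the threshold (log2 change -0.50 ± 0.19 SE, edgeR adjusted p = 0.12). Without library 2 its log2 change was -0.76 with an adjusted p of 0.0071, with library totals alone -0.85 with an adjusted p of 0.025, and with limma voom quality weights -0.60 with an adjusted p of 0.033. Bcl2l11 was called in these 3 of 17 alternatives.

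Among the necroptosis genes, Ripk1 (ENSMUSG00000021408, chromosome 13, 34002363 to 34035170, plus strand) encodes the kinase and scaffold that joins death receptors to survival or death. It was 44.2, 42.2 and 43.0 CPM in libraries 2, 3 and 2600 and 40.2, 39.8 and 39.9 CPM in scrambled libraries 28, 30 and 31. The groups did not overlap, by a margin of a few CPM. The Ripk1 log2 change was 0.11 ± 0.12 (SE), with a 95% interval from -0.15 to 0.37 (edgeR adjusted p = 0.57), and -0.25 with library totals alone. In the annotation Ripk1 shares 511 exon bases with the pseudogene Gm17084 on its own strand and 241 with Serpinb6a on the other.

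Ripk3 (ENSMUSG00000022221, chromosome 14, 55784996 to 55788857, minus strand) encodes the kinase that activates MLKL, and mouse hepatocytes are generally held to express little of it. It was 2.70, 2.96 and 3.48 CPM in libraries 2, 3 and 2600 and 3.83, 3.37 and 3.44 CPM in scrambled libraries 28, 30 and 31. The groups overlapped, since library 2600 lay within the scrambled range. The Ripk3 log2 change was -0.23 ± 0.20 (SE), with a 95% interval from -0.67 to 0.22 (edgeR adjusted p = 0.49).

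Mlkl (ENSMUSG00000012519, chromosome 8, 111311797 to 111338177, minus strand) encodes the pseudokinase that executes necroptosis. It was 14.4, 12.6 and 18.6 CPM in libraries 2, 3 and 2600, against 21.5, 21 and 21.6 CPM in scrambled libraries 28, 30 and 31. All 3 libraries labelled S100a11 shRNA were below a scrambled group that hardly varied, and library 2600 was nearest to it. The Mlkl means were 15.2 ± 3.10 and 21.4 ± 0.31 CPM (SD, n = 3 each), 1.41-fold lower without passing the threshold (log2 change -0.49 ± 0.17 SE, edgeR adjusted p = 0.086). Without library 2600 the Mlkl log2 change was -0.67 with an adjusted p of 0.031. With upper-quartile factors it was -0.59 with an adjusted p of 0.048, with library totals alone -0.86 with an adjusted p of 0.0066, and with limma voom quality weights -0.58 with an adjusted p of 0.028. Without library 2 or library 3 the edgeR adjusted p of Mlkl was 0.088 or 0.21. Without scrambled libraries 28, 30 and 31 it was 0.20, 0.22 and 0.20. Mlkl was called in 5 of 17 alternatives, which include the looser threshold of 0.1.

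Of the pyroptosis genes, Casp1 (ENSMUSG00000025888, chromosome 9, 5298517 to 5307265, plus strand) encodes the inflammasome protease that matures interleukin 1 beta and interleukin 18. It was 3.78, 3.64 and 4.71 CPM in libraries 2, 3 and 2600 and 5.77, 4.68 and 4.95 CPM in scrambled libraries 28, 30 and 31. Library 2600 overlapped the scrambled group and the other two lay below it. The Casp1 log2 change was -0.35 ± 0.19 (SE), with a 95% interval from -0.78 to 0.09 (edgeR adjusted p = 0.27), and with library totals alone it was -0.71 with an adjusted p of 0.028.

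Gsdmd (ENSMUSG00000022575, chromosome 15, 75862339 to 75867404, plus strand) encodes gasdermin D, the pore-forming substrate of caspase 1. It was 34.6, 39.8 and 47.0 CPM in libraries 2, 3 and 2600 and 44.0, 40.8 and 38.3 CPM in scrambled libraries 28, 30 and 31. The scrambled values lay inside the wider range of the other group. The Gsdmd log2 change was -0.02 ± 0.15 (SE), with a 95% interval from -0.36 to 0.31 (edgeR adjusted p = 0.94). Its sign turned without library 2 (0.05) and without scrambled library 28 (0.03).

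**Figure D2:**
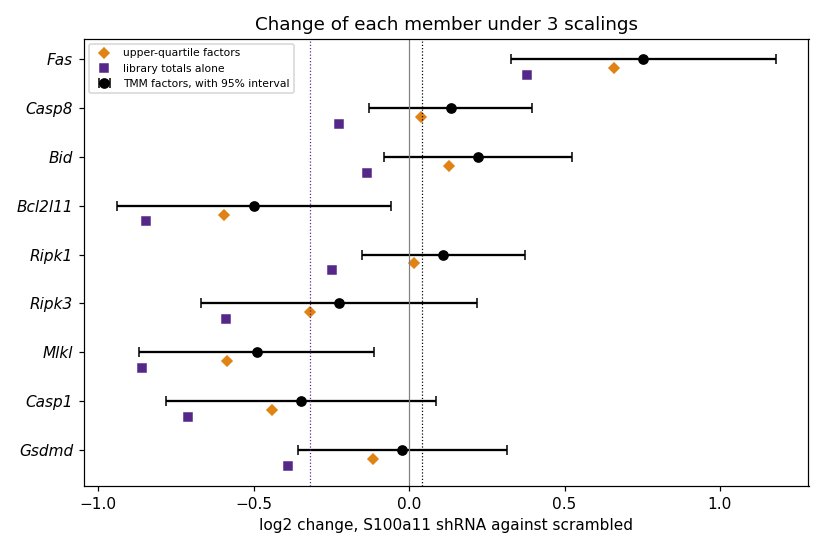
For each gene the black point and bar give the log2 change of S100a11 shRNA against scrambled with TMM factors and its 95% interval, the orange diamond the change with upper-quartile factors and the purple square that with library totals alone. Dotted lines mark the median of all tested genes with TMM (0.04, black) and with library totals alone (-0.32, purple), and the purple squares sit left of the black points by about the distance between those lines.

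A change of scaling shifts the log2 changes of all genes nearly alike, so values relative to the median of all genes differ little by construction and are given as a description. With library totals alone the median of all tested genes was -0.32. Relative to the median of its own scaling, Fas stood at 0.71 (TMM) and 0.70 (library totals). Mlkl stood at -0.53 and -0.54 on the same basis, and Bcl2l11 at -0.54 and -0.53. Casp8 was at 0.09 with either, Ripk1 at 0.07 with either and Bid at 0.18 with either.

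Levels of different genes can be compared only per length, here as CPM per kilobase of the gene length in the deposited table. In the scrambled group Gsdmd was the most abundant of the 9 at 23.1 ± 1.603 CPM per kilobase (SD, n = 3). Casp8 followed at 12.7 ± 0.12, Fas at 11.1 ± 1.23, Mlkl at 9.27 ± 0.13 and Ripk1 at 6.51 ± 0.040 CPM per kilobase. Bid stood at 4.53 ± 0.17, Casp1 at 3.43 ± 0.38, Bcl2l11 at 2.48 ± 0.23 and Ripk3 at 1.81 ± 0.13 CPM per kilobase. With these lengths no neighbours in the order overlapped in that group over the 3 libraries. GENCODE gives longer models for Ripk1, Ripk3, Gsdmd and Fas, and orders and overlaps that involve them hold only for the lengths used. In the libraries labelled S100a11 shRNA, Fas stood above Casp8 (18.6 ± 4.53 against 13.9 ± 0.29 CPM per kilobase) and Ripk1 above Mlkl (7.02 ± 0.17 against 6.61 ± 1.34), and the ranges of Ripk1 and Mlkl overlapped. Gsdmd (22.8 ± 3.51) and Fas also overlapped there, as did Mlkl and Bid, and Bcl2l11 (1.75 ± 0.45) and Ripk3 (1.55 ± 0.20).

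**Figure D3:**
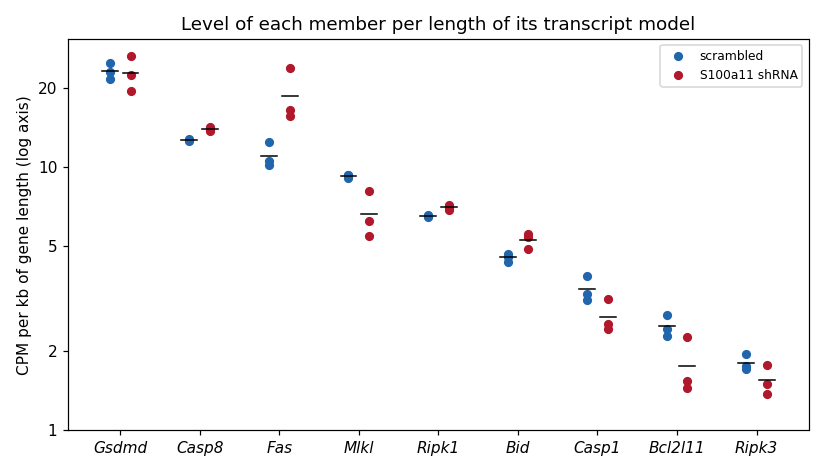
Each point is 1 library and each bar a group mean, as CPM per kilobase of gene length on a log axis, with genes ordered by their mean in the scrambled group (blue) beside the libraries labelled S100a11 shRNA (red). Levels run from 23.1 CPM per kilobase for Gsdmd to 1.81 for Ripk3 in the scrambled group, and Fas moves from below to above Casp8.

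Within the 9, Casp8 and Ripk1 differed least from each other over the libraries, and both varied little. After centring log2 CPM on each gene's mean, they differed by a root mean square of 0.019 over the 6 libraries, and the next closest pairs were Ripk1 with Bid (0.074), Casp8 with Bid (0.074) and Casp1 with Ripk3 (0.088). The ratio of Casp8 to Ripk1 CPM lay between 0.916 and 0.951 in every library. The genes closest to Fas by this measure, among all tested genes of at least 1 CPM other than predicted models, were Sgsm2 (0.050), Hexim1 (0.063) and Cyp46a1 (0.071). Those closest to Gsdmd, the member with the largest p, were Wash (0.023), Snx11 (0.027) and Map7 (0.035). This likeness is a description over 6 libraries and says nothing of shared function. The measure is also small between genes that hardly vary, so a small value does not show that they move together.

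Other ratios were formed within libraries, so that scaling cancels. The 6 ratios were chosen after the values were seen, and 0.1 is the smallest two-sided p that an exact permutation test of 3 against 3 allows. Mlkl to Ripk3 was 5.33, 4.27 and 5.36 in libraries 2, 3 and 2600 and 5.61, 6.23 and 6.26 in scrambled libraries 28, 30 and 31, lower in all 3 (exact permutation p = 0.1, 0.15 adjusted over 6 ratios). Fas to Fasl was 50.6, 109 and 111 against 32.8, 19.5 and 28.8 (exact permutation p = 0.1, 0.15 adjusted). Bcl2l11 to Bcl2 was 2.10, 1.76 and 1.21 against 1.49, 1.18 and 1.24, and the groups overlapped (exact permutation p = 0.3, also 0.3 adjusted). Casp8 to Ripk1 gave an exact permutation p of 0.2, or 0.24 adjusted.

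The wider cell death machinery was described by 7 lists arranged by role, 87 genes in all, of which 84 were tested. Of these 2 rose and 9 fell, where 14.1% of all tested genes were called (5.82% higher and 8.28% lower), and the median log2 change was -0.09. The 9 falls were 3 inflammasome sensors, 2 caspases, 2 BCL2 survival genes, 1 death receptor and Apaf1. Without scrambled library 30 the count was 1 rise and 1 fall, without scrambled library 31 it was 1 and 2, and without library 3 it was 1 and 3. Without scrambled library 28 it was 1 and 6, and without library 2 or library 2600 it was 7 and 15 or 2 and 15. With library totals alone 1 rose and 31 fell.

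Caspases gave 2 falls and 0 rises of 7 tested, beside 8.28% of all tested genes called lower. Both are neighbours of Casp1 on chromosome 9. Casp12, a caspase of the inflammatory group linked to the endoplasmic reticulum, was 5.99, 5.61 and 5.93 CPM in libraries 2, 3 and 2600 against 13.9, 16.2 and 18.4 CPM in scrambled libraries 28, 30 and 31, 2.77-fold lower (log2 change -1.47 ± 0.16 SE, edgeR adjusted p = 0.0032). The groups of Casp12 lay far apart, and the call held without any one library (adjusted p of 0.00087 to 0.020). Casp4, the sensor of cytosolic lipopolysaccharide that also cleaves gasdermin D, was 5.41, 5.07 and 6.96 CPM against 10.6, 10.8 and 11.8 CPM, 1.91-fold lower (edgeR adjusted p = 0.012, or 0.055 and 0.052 without scrambled libraries 30 and 31). The ratio of Casp12 to Casp1 was 1.59, 1.54 and 1.26 in libraries 2, 3 and 2600 and 2.42, 3.46 and 3.71 in scrambled libraries 28, 30 and 31. That of Casp4 to Casp1 was 1.43, 1.39 and 1.48 against 1.84, 2.31 and 2.38. Both ratios were lower in all 3 libraries labelled S100a11 shRNA (exact permutation p = 0.1 each, 0.15 adjusted over 6 ratios). That p is the smallest possible, for ratios chosen after the values were seen, and adds no support.

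Inflammasome and pyroptosis genes had the lowest median of the 7 lists, -0.58, with 3 falls and 0 rises of 15 tested, again beside 8.28% called lower over all genes. Aim2, the sensor of cytosolic DNA, was 4.32, 4.48 and 4.91 CPM in libraries 2, 3 and 2600 against 9.44, 9.45 and 8.12 CPM in scrambled libraries 28, 30 and 31, 1.97-fold lower (edgeR adjusted p = 0.0085, or 0.051 without scrambled library 30). Nlrp1b averaged 10.01 ± 2.25 CPM against 17.5 ± 1.04 CPM (SD, n = 3 each), a 1.76-fold fall (edgeR adjusted p = 0.024), and Naip2, which senses bacterial secretion systems, fell 1.49-fold (16.4 ± 1.62 against 24.5 ± 1.52 CPM, edgeR adjusted p = 0.028). The Nlrp1b call ended without library 3 or any one scrambled library (adjusted p of 0.061 to 0.096), and that of Naip2 without any one library other than library 2 (0.062 to 0.12). Nlrp1b and Naip2 have close copies in the mouse genome, so their counts may depend on how shared reads were divided. The other gasdermins were named after their values were seen. Gsdma and Gsdmc held 0 counts in every library, and Dfna5 (gasdermin E) had a log2 change of -0.62 (edgeR adjusted p = 0.097).

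The BCL2 family gave 1 rise and 2 falls of 16 tested, beside 5.82% of all tested genes called higher and 8.28% called lower. Bcl2, the founding survival gene of the family, was 8.71, 7.001 and 9.57 CPM in libraries 2, 3 and 2600 against 12.3, 16.6 and 17.8 CPM in scrambled libraries 28, 30 and 31, 1.85-fold lower (edgeR adjusted p = 0.021). Its call ended without library 3 or scrambled library 30 or 31 (adjusted p of 0.071, 0.092 and 0.079). Bcl2a1b, a survival gene of leukocytes, fell 4.31-fold, from 3.34 ± 0.63 CPM in the scrambled group to 0.75 ± 0.58 CPM (SD, n = 3 each, edgeR adjusted p = 0.019). That call ended without library 3 or scrambled library 30 or 31 (0.081, 0.054 and 0.062). Bcl2a1b shares 401 exon bases with Gm29094 and has near-identical copies, so its counts are uncertain. The BH3-only gene Hrk was 6.47-fold higher (0.55 ± 0.19 against 0.084 ± 0.033 CPM, edgeR adjusted p = 0.0097) on 26 to 34 counts per library against 4 to 7. In hepatocytes the survival genes Mcl1 and Bcl2l1 are the main ones, and these, named after their values were seen, gave log2 changes of -0.09 and -0.06 (edgeR adjusted p = 0.79 and 0.82).

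Of 10 apoptosome and caspase inhibitor genes 1 rose and 1 fell, beside 5.82% of all tested genes called higher and 8.28% called lower. Apaf1, the scaffold of the apoptosome, was 20.3, 19.9 and 23.8 CPM in libraries 2, 3 and 2600 against 28.6, 30.5 and 29.6 CPM in scrambled libraries 28, 30 and 31, 1.39-fold lower (edgeR adjusted p = 0.046, or 0.12 to 0.18 without library 3 or any one scrambled library). Endog, a mitochondrial nuclease, rose 1.71-fold, from 8.53 ± 1.68 CPM in the scrambled group to 14.6 ± 1.73 CPM (SD, n = 3 each, edgeR adjusted p = 0.030, or 0.15 with library totals alone). Without library 3 or any one scrambled library its adjusted p was 0.054 to 0.12. Endog shares 35.6% of its exon bases with Spout1 on the opposite strand.

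Death ligands and receptors gave 1 fall and 0 rises of 13 tested, near the 8.28% of all tested genes called lower. Their median log2 change was -0.41. Tnfrsf10b, the TRAIL death receptor, was 1.78, 1.44 and 0.73 CPM in libraries 2, 3 and 2600 against 3.18, 3.65 and 5.05 CPM in scrambled libraries 28, 30 and 31, 2.96-fold lower (edgeR adjusted p = 0.017). It moved opposite to Fas, although its call ended without library 3 or scrambled library 30 or 31 (adjusted p of 0.062, 0.059 and 0.065). Tnfrsf12a, the receptor of TWEAK, had a log2 change of -1.12 (edgeR adjusted p = 0.051, or 0.0016 without library 2).

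Neither adaptors and regulators (14 tested) nor the other necroptosis genes (9 tested) held a gene past the threshold. At an unadjusted p under 0.05 edgeR gave 2 adaptors and 3 necroptosis genes, beside 29.7% of all tested genes, and the list medians were 0.09 and 0.10. The adaptors with the smallest p were Ikbkg, a subunit of the IKK complex, with a log2 change of 0.41 (edgeR adjusted p = 0.11), and Tnfaip3, the A20 deubiquitinase, with -0.67 (edgeR adjusted p = 0.13). Stub1, a ubiquitin ligase, and Ppm1b, a phosphatase that acts on RIPK3, had log2 changes of 0.46 and 0.38 (edgeR adjusted p = 0.067 and 0.068). Leaving out 1 library brought some of these genes past the threshold. Without library 2 the edgeR adjusted p was 0.041 for Ikbkg and 0.022 for Stub1, and also 0.037 for Rnf31 and 0.016 for Tlr4, both named after their values were seen. Without library 2600 it was 0.029 for Tnfaip3. Stub1 shares 42.3% of its exon bases with Jmjd8 on the other strand.

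**Figure D4:**
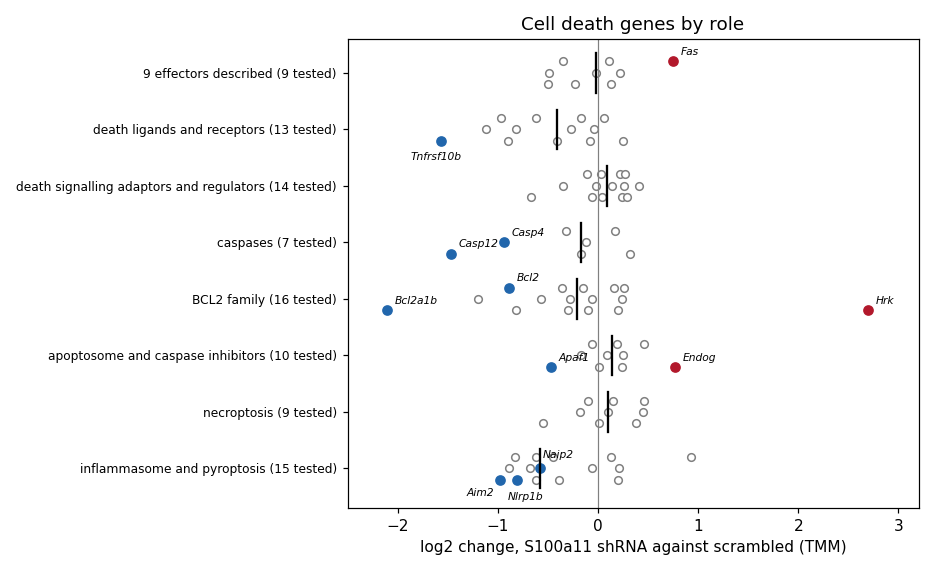
Each circle is 1 tested gene at its log2 change (horizontal axis, TMM scaling), in rows by role, with the number tested in brackets. Filled circles passed the edgeR threshold (red higher, blue lower), open circles did not, and the black bar is the list median, lowest for inflammasome and pyroptosis genes at -0.58.

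Markers of leukocytes moved with the groups. The 8 general leukocyte genes were all lower by sign, and 4 fell (Ptprc, Coro1a, Lyz2 and Cd68). Over all tested genes 8.28% were called lower and 5.82% higher. The sum over them was 125 to 236 CPM in libraries 2, 3 and 2600, below the 302 to 462 CPM of the scrambled ones, and none was at 0. The 9 macrophage markers, of which 6 fell, summed to 266 to 505 CPM against 615 to 855 CPM. Lyz2 and Cd68 belong to both lists, so the falls and the sums of these lists are partly the same values. Both sums were lowest in library 3. Casp1, Mlkl, Casp4, Aim2, Nlrp1b and Bcl2a1b, genes that leukocytes express, had lower means in the libraries labelled S100a11 shRNA. They were picked for those means after the values were seen. Among the other genes followed here, Gsdmd, Il18 and Il1b had log2 changes of -0.02, -0.06 and 0.20. The part of leukocyte content in any of these values was not tested. The 4 Kupffer cell markers summed to 143 to 362 CPM against 203 to 360 CPM, a sum carried by Cd5l and Clec4f. Within that list Timd4, which marks Kupffer cells long settled in the liver, rose 4.98-fold, from 1.78 ± 0.53 CPM in the scrambled group to 8.89 ± 1.56 CPM (SD, n = 3 each, edgeR adjusted p = 0.0033), while Vsig4 and Cd5l had log2 changes of -0.54 and -0.42 (edgeR adjusted p = 0.31 and 0.52). Single marker genes were named after their values were seen. The 4 neutrophil markers summed to 11.04 to 21.1 CPM against 20.3 to 22.4 CPM. The 5 B cell markers summed to 12.6 to 16.3 CPM against 27.3 to 57.1 CPM.

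Among markers of other liver cells, the 5 cholangiocyte markers all fell, with sums of 39.6 to 75.1 CPM against 242 to 356 CPM. The shares over all tested genes were again 8.28% called lower and 5.82% called higher. The 5 stellate cell markers summed to 247 to 390 CPM against 450 to 644 CPM, with 3 falls (Pdgfrb, Des and Col1a1). Col1a1 weighed most in that difference, at 64.6 ± 49.3 against 223 ± 66.3 CPM (SD, n = 3 each). Lrat and Reln of the same list had log2 changes of 0.05 and -0.17 (edgeR adjusted p = 0.90 and 0.52). The 5 endothelial markers summed to 481 to 725 CPM against 464 to 543 CPM, ranges that overlap in a sum carried mostly by Stab2. In that list Clec4g rose 1.76-fold and Lyve1 fell 1.44-fold (edgeR adjusted p = 0.011 and 0.045). The 7 hepatocyte markers summed to 48877 to 68069 CPM against 40982 to 51548 CPM, which also overlap, and 1 of the 7 (Serpina1a) rose. Fas was highest in library 2600. That library held the highest endothelial, Kupffer cell and neutrophil sums of its group and the lowest hepatocyte and stellate cell sums. These sums were named after their values were seen, and the part of cell composition in the Fas values was not tested.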

How the data were processed

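Livers were lysed in Trizol, RNA was purified with a Zymo kit and treated with DNase, and ribosomal-RNA-depleted stranded libraries were made from 100 ng of total RNA, per the labels' protocols. The authors deposited 1 table of raw counts, with an Ensembl ID, name and length for each gene. Per the submitters' processing notes the build is mm10. For the aligner, the counting tool and the strand setting, nothing is given in the sources used here.

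No 2 libraries agreed within sampling noise (lowest chi-square per gene 48.4). The test was that of edgeR 4.0.16 (R 4.3.3): filterByExpr (minimum count 10, minimum total 15), TMM factors (0.822 to 0.932 in libraries labelled S100a11 shRNA, 1.10 to 1.19 in scrambled ones), glmQLFit with legacy=FALSE and glmQLFTest over 19352 genes, adjusted by Benjamini-Hochberg. SE is the log2 change over the root of F, and 95% intervals use the test's degrees of freedom. Likeness was computed on log2 CPM (prior count 2). The length in the table equalled the GENCODE M21 exon union for the 5 members with identical coordinates. For Ripk1, Ripk3, Gsdmd and Fas it was shorter, at 6138, 1964, 1776 and 1801 bases against 8344, 2292, 2377 and 2062 bases.

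The members and lists were chosen with earlier results of these data known. Named genes are the 9 members, every called gene and the 2 smallest p of each list, S100a11, the 3 genes nearest to the members with the smallest and largest p, and marker sums. Others are named as chosen after their values were seen. Of the list genes 2 were matched by a newer symbol and 1 (Tf) was not matched.

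Alternatives were RLE and upper-quartile factors, library totals alone, other low-count filters (none, or 1 CPM in at least 3 libraries), scaling without the 20 most abundant genes, DESeq2 1.42.0, limma 3.58.1 voom with and without quality weights, an adjusted p of 0.1 and leaving out each library. The legacy quasi-likelihood fit was added after seeing the data. The procedure was also run on counts simulated from the means and dispersions of these data. That run checked the procedure alone and adds no support to any result here. Promoter sequences are from RefSeq (GRCm38.p6). Python 3.11.15, scipy 1.17.1 and matplotlib 3.10.9 were used for the rest.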

Additional observations from a re-analysis of the deposited data

How the results depend on the processing

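Of 153 values of single members over 17 alternatives, 132 kept their direction and side of the threshold, 9 passed it anew, 7 no longer passed and 5 turned sign. The sign turned for Casp8 (-0.23), Ripk1 (-0.25) and Bid (-0.14) with library totals alone, and for Gsdmd without library 2 (0.047) and without scrambled library 28 (0.03), in a range of -0.16 to 0.047 as single libraries were left out. With library totals alone the counts called were 4367 genes, 3 members (Casp1, Mlkl and Bcl2l11, all lower) and 32 wider genes, where the scaling itself lowers the median of all genes. At an adjusted p of 0.1 they were 4206, 2 and 20. Voom with quality weights called 3 members and 22 wider genes, and DESeq2 18 wider genes. The cause was not tested. Leaving out 1 library at a time gave 724 to 4176 genes, 0 to 2 members and 2 to 22 wider genes. The split of called genes was 1126 higher and 1602 lower, or 816 and 1980 with upper-quartile factors and 397 and 3970 with library totals alone. With upper-quartile factors the 1 member called was Mlkl, lower, and without library 2600 it was also Mlkl. No paired analysis was possible because the groups share no replicate number. The members held at least 153 counts per library, while Hrk, Fasl and Bcl2a1b held few, and the part of depth in the errors was not tested.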

Other observations

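Several inflammasome genes in library 2600 stood apart from libraries 2 and 3 of the same label, a pattern picked after the values were seen. Naip5, a sensor of bacterial flagellin, was 13.6, 15.7 and 31.3 CPM in libraries 2, 3 and 2600, against 27.6, 27.4 and 24.1 CPM in scrambled libraries 28, 30 and 31. Mefv, which encodes pyrin, was 4.10, 3.12 and 8.55 CPM against 9.08, 9.01 and 6.89 CPM. Nlrp3 was 5.59, 5.10 and 8.46 CPM against 9.18, 8.34 and 8.44 CPM. Il1b was 2.73, 1.68 and 8.41 CPM against 4.18, 2.51 and 4.27 CPM, so library 2600 held the highest value of all 6. None of these genes passed the threshold (edgeR adjusted p = 0.41, 0.22, 0.20 and 0.84 for Naip5, Mefv, Nlrp3 and Il1b). Without library 2600 Naip5, Mefv and Nlrp3 were called lower (edgeR adjusted p = 0.018, 0.022 and 0.042). As they were picked for their values in library 2600, leaving it out favours such calls, which add no support. Nlrp6, an inflammasome gene of hepatocytes and gut epithelium, varied in another way, at 197, 510 and 415 CPM against 239, 182 and 169 CPM (edgeR adjusted p = 0.084, or 0.0027 without library 2).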
